A study of Rattus norvegicus with 6 samples.

Results

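Genes that move water and urea across cell membranes or gather organic osmolytes were followed in primary nucleus pulposus cells of Sprague Dawley (SD) rats. These cells lie in the soft centre of each disc of the spine. The members were 9 genes picked by name for these functions: Aqp1, Aqp3, Aqp5, Slc14a1, Slc6a6, Slc6a12, Slc5a3, Akr1b1 and Nfat5. By name, 7 of them matched 1 row each among the 19088 rows of the gene table. Aqp5, a water channel of secretory epithelia, and Slc5a3, the myo-inositol carrier, matched no row, which the rule counts as not detected, and they are not analysed here. The list was drawn up with results of this comparison already known, Aqp1 and Slc14a1 being among its largest differences, so the members' changes are given as a description and support no general statement.

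The study set 3 samples given recombinant Sonic hedgehog (rShh), a secreted ligand of the Hedgehog pathway, dosed at 200 ng/ml over 48 h against 3 samples given DMSO, in which rShh had been dissolved, also over 48 h (Control). All 6 were primary cells of the same strain grown in DMEM/F12 with 10% serum, and poly(A) RNA was sequenced. The labels do not state the animals' sex or age, nor do they say that replicates were separate animals or cultures, and p-values therefore rest on a replicate spread that could be technical alone. Gene counts summed to 65116846 to 70031072 per rShh library and to 50758195 to 55501124 per Control library. The groups also differed in chromosome Y transcripts. The 20 rows of that chromosome summed to 14565 to 15659 counts in the rShh libraries and to 300 to 381 counts in the Control libraries. Of these, 6 rows, picked for 0 counts in Control and at least 10 in each rShh library, held 13523 to 14604 counts per rShh library. Mitochondrial genes took 3.25% to 3.36% of counts in rShh and 1.97% to 2.28% in Control. The ligand, these differences and a difference in source animals, such as their sex, cannot be told apart in any comparison below. Ptch1, a receptor that Hedgehog signalling itself induces, stood at 32.6 ± 1.61 CPM in rShh and 12.5 ± 1.65 CPM in Control (CPM, counts scaled by library size; mean ± SD, n = 3 each), and was higher in rShh. Smo, the transducer of the signal, was lower, at 27.2 ± 0.839 CPM in rShh and 50.0 ± 1.49 CPM in Control (log2 change -0.88, edgeR adjusted p = 2.37e-06). Gli1, a transcription factor that the pathway induces, had 25, 35 and 30 counts in rShh and 22, 0 and 0 in Control and did not pass (edgeR adjusted p = 0.200). Of 11 tested nucleus pulposus markers, 6 were higher in rShh, 4 lower and 1 did not pass, and the 12 with a row summed to 1229 to 1240 CPM in rShh and 439 to 460 CPM in Control. In rShh, Acan, Hif1a and Slc2a1 took most of that sum, at mean CPM of 586, 253 and 193, against 56.5, 78.6 and 88.7 in Control. The sum therefore does not speak for the list as a whole. The 4 lower markers were Pax1, Cd24, Krt8 and Col2a1. Krt19, Tbxt (also sought as T) and Foxf2 matched no row. Pax1, Foxf1, Acan and Cd24 had 914 to 39603 counts per library, whereas Krt18 had at most 9 counts in any library. Col2a1 had 0 to 17 counts in rShh and 76 to 97 in Control.

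The nucleus pulposus is kept hyperosmotic by its charged proteoglycans, and its cells face changes in tonicity as the disc is loaded and unloaded. Aquaporins let water follow the osmotic gradient, and urea transporters let urea equilibrate. To hold volume without concentrating salt, cells take up or make compatible osmolytes, namely taurine, betaine, myo-inositol and sorbitol. Nfat5, also called TonEBP, is the transcription factor that switches on the genes for these carriers and enzymes when tonicity rises, by binding tonicity-responsive elements (TonE) in DNA.

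Taken member by member, Aqp1, Slc14a1 and Nfat5 were higher in rShh, Slc6a6 was lower, and Akr1b1 and Slc6a12 did not pass edgeR's quasi-likelihood test at an adjusted p below 0.05. Aqp3 had too few counts to be tested. Most genes were called in this comparison. Of 14775 genes tested, 60.3% were called, 31.5% as higher and 28.8% as lower in rShh. Of the 6 members tested, 4 were called and 5 had groups that did not overlap in CPM, which held for 68.1% of all genes tested. The median log2 change (rShh over Control) was 1.37 over these 6 members and 0.01 over all genes tested. Since the members were chosen with results known, the former describes these 6 genes alone. In bulk RNA, fewer cells that express a gene and less RNA per cell cannot be told apart.

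**Figure D1:**
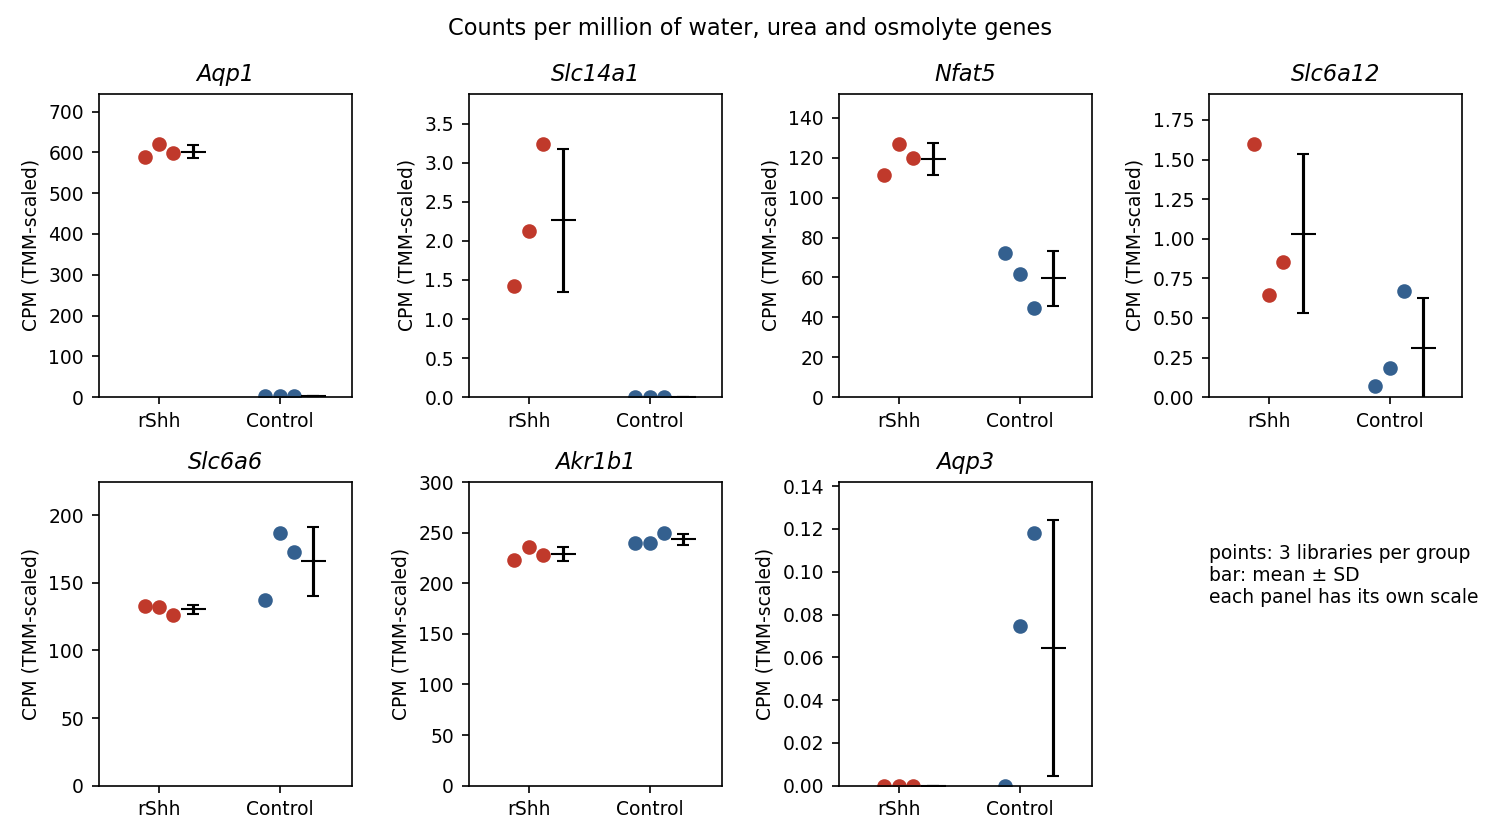
TMM-scaled CPM (y axis, each panel on its own linear scale from 0) of the 7 genes in rShh and Control libraries. Points are the 3 libraries of a group and bars the mean ± SD. Aqp1 at 588 to 620 CPM in rShh stands against 2.40 to 2.78 CPM in Control, while the Akr1b1 means lie close together, at 229 CPM in rShh and 243 CPM in Control.

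Aqp1, the water channel of red cells, kidney tubules and many endothelia, had the highest counts of the members in rShh and few in Control. It lies at 85551502 to 85569360 on the plus strand of chromosome 4 in the deposited tables, whose build is not given in the sources used here. Its counts were 37904, 43177 and 39114 in the rShh libraries, against 141, 129 and 141 in the Control libraries. The groups were far apart, and the libraries of each group lay close together. That corresponded to 602 ± 16.7 CPM in rShh and 2.56 ± 0.196 CPM in Control, a ratio of 235. On the length-scaled FPKM values of the authors (fragments scaled by gene length and depth) the means were 175 ± 7.42 in rShh and 0.736 ± 0.053 in Control, a ratio of 238. The fitted log2 change was 7.88 (SE 0.08), and 0.636% of all genes tested had a larger fitted change in either direction. In rShh 98.1% of the rows of the gene table had a lower mean FPKM than Aqp1, and in Control 37.3% had.

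The promoters of Aqp1 and Slc14a1, the members with the largest differences, and of Slc6a6, the member called lower, are shown because the first pair moved in the same direction and the third in the other. They are RefSeq sequences of the GRCr8 build, whose coordinates differ from the deposited ones, and cover 250 bases before and 50 bases after the annotated start, 5′ to 3′ on the gene's strand. Capitals mark the TATA box (TATAAA), the GC box (GGGCGG), the NFAT5 core (TGGAAA) and the TonE consensus, which contains that core, each searched on both strands, so that a match on the other strand reads as its reverse complement. RefSeq promoters were matched for 7 of the 9 members, not for Akr1b1 or Nfat5. RefSeq's start was not matched to the starts of the deposited isoforms, and Slc6a6 is on the plus strand there but on the minus strand in the deposited tables.
Aqp1 promoter (chr4:85812534-85812833, plus strand): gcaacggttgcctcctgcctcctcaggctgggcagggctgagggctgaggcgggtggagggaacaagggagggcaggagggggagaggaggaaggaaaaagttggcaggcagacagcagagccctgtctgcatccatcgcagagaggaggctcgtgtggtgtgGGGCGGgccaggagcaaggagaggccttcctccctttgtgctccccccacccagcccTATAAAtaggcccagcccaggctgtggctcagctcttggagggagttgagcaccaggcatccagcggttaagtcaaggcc
Slc14a1 promoter (chr18:73864594-73864893, minus strand): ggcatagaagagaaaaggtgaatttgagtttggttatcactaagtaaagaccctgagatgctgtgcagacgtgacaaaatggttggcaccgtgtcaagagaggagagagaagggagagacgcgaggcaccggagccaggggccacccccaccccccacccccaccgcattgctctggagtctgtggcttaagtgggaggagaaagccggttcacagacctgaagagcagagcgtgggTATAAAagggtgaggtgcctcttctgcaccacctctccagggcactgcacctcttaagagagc
Slc6a6 promoter (chr4:125752252-125752551, plus strand): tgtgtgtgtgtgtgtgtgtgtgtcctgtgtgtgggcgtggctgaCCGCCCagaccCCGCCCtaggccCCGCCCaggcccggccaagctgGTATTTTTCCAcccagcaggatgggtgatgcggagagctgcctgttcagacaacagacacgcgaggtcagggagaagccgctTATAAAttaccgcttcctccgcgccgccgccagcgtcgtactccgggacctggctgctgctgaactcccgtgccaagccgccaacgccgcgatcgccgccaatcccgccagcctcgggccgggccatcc

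All 3 windows, and that of Aqp3, held TATAAA, which 14.2% of the 33469 promoters of this length contain. It began at -30 in Aqp1, at -13 in Slc14a1 and at -79 in Slc6a6, counted from the annotated start. The GC box, present in 33.1% of all promoters, occurred once in Aqp1 at -87 and 3 times in Slc6a6, on the other strand. Among the 7 members' windows, Slc6a6 alone held TGGAAA, found in 22.7% of promoters, within a match to the TonE consensus, found in 5.98%. The GLI consensus GACCACCCA, which 0.385% of promoters hold, was in none of the 7 windows. These matches describe letters, not sites in use.

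Aqp1 was deposited as a pair of isoforms. The isoform of 4 exons and 2624 nt held nearly all of the signal, at 191 ± 7.34 FPKM in rShh and 0.813 ± 0.058 FPKM in Control. The isoform of 5 exons and 1064 nt, which starts 1 base before the other and ends further downstream, had 244, 618 and 356 counts in the rShh libraries and 0 in each Control library. It made up 0.644%, 1.43% and 0.910% of the Aqp1 counts in the rShh libraries. In Control a count of 0 among 411 Aqp1 counts allows a share of up to 0.73%, for counting error alone. That limit lies below the shares of rShh replicates 2 and 3 and above that of rShh replicate 1. In single Control libraries it is 2.13% to 2.33%, above all 3.

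Aqp3, an aquaglyceroporin that passes glycerol and urea as well as water, was at the edge of detection. It had 0 counts in each rShh library, and 0, 4 and 6 counts in the Control libraries. The groups overlapped at 0, and no fold is given. Of the other 9 aquaporins listed, Aqp11, an intracellular member of the family, was the only one tested, at 0.794 ± 0.345 CPM in rShh and 0.813 ± 0.199 CPM in Control (log2 change -0.04, SE 0.45, edgeR adjusted p = 0.951). Mip and Aqp7 had at most 15 counts in any library.

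Slc14a1 encodes the urea transporter UT-B, the Kidd antigen of red cells, which also serves the vasa recta of the kidney. It lies on the minus strand of chromosome 18 at 74461055 to 74485139. It had 92, 148 and 212 counts in the rShh libraries and 0 in each of the 3 Control libraries. The rShh libraries spread widely among themselves, with a coefficient of variation of 40.3% in CPM, but all lay above Control. At 2.26 ± 0.913 CPM in rShh, it was at least 40.4-fold higher than Control with each library set to its floor, 3 counts (0.053 to 0.059 CPM). Its level stayed low on the length-scaled measure, with a mean of 0.537 ± 0.223 FPKM in rShh and listed at 0 in Control. The isoform of 8 exons carried 88.0%, 85.8% and 96.7% of its counts in the 3 rShh libraries, and the isoform of 9 exons, which reaches further upstream, the rest. The other urea transporter gene, Slc14a2, had at most 6 counts per library in either of its rows. The arginases, which release urea from arginine, went opposite ways. Arg1, the cytosolic form, was at 36.3 ± 0.829 CPM in rShh and 6.28 ± 1.31 CPM in Control (log2 change 2.53, edgeR adjusted p = 2.29e-07), and Arg2, the mitochondrial form, at 0.986 ± 0.269 CPM in rShh and 17.9 ± 2.02 CPM in Control (log2 change -4.18, edgeR adjusted p = 7.47e-08).

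Slc6a6, the taurine transporter TauT, was the member called lower. It is annotated at 123642210 to 123713464 on the minus strand of chromosome 4. Its levels were 132.5, 132.3 and 126 CPM in the rShh libraries and 138, 187 and 173 CPM in the Control libraries. The groups did not overlap, but Control replicate 1 lay close to the rShh libraries. Means were 130 ± 3.60 CPM in rShh and 166 ± 25.5 CPM in Control, a ratio of 0.785 (log2 change -0.35, SE 0.10, edgeR adjusted p = 0.0102). Without Control replicate 2 the call was narrowly lost, at a log2 change of -0.26 and an edgeR adjusted p of 0.0501. Leaving out any other 1 library kept it, with edgeR adjusted p-values from 4.38e-05 to 0.0447. Over the 13 alternatives tried the adjusted p ran from 4.38e-05 to 0.0501.

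Of the Slc6a6 isoforms, one passed the test and the other did not, which does not show that they differ. The isoform of 15 exons (2463 nt) had 25.7, 27.6 and 27.7 FPKM in rShh and 35.5, 48.8 and 35.8 FPKM in Control. All rShh libraries lay below all Control libraries, and it was lower in rShh by limma on log2(FPKM + 1), with a log2 change of -0.54 on that scale (SE 0.13, limma adjusted p = 0.0112). The isoform of 16 exons (2319 nt) had 19.9, 19.4 and 16.6 FPKM in rShh and 12.5, 15.3 and 24.0 FPKM in Control, and the groups overlapped (log2 change 0.15, SE 0.22, limma adjusted p = 0.590). Control replicate 3 carried that overlap, and without it the log2 change was 0.40 (limma adjusted p = 0.0373), in a range of adjusted p from 0.0373 to 0.858 over 10 alternatives. The 15-exon isoform took 59.2% ± 3.10 of the summed isoform FPKM in rShh and 70.0% ± 8.88 in Control. The difference of -10.8 percentage points was smaller than the range of the Control libraries, which ran from 59.8% to 76.2%, and had a two-sided exact permutation p of 0.2, where 3 against 3 cannot go below 0.1. Without Control replicate 3 the difference was -15.9 points. Isoform values are the assembler's division of shared reads, so they carry more error than gene values.

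Of 12 isoforms of the members, 6 passed the minimum of 1 FPKM on average. Both Aqp1 isoforms and the 15-exon Nfat5 isoform were called higher, the 15-exon Slc6a6 isoform lower, and the Akr1b1 isoform and the 16-exon Slc6a6 isoform did not pass. Among all 13699 isoforms tested 56.5% were called.

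**Figure D2:**
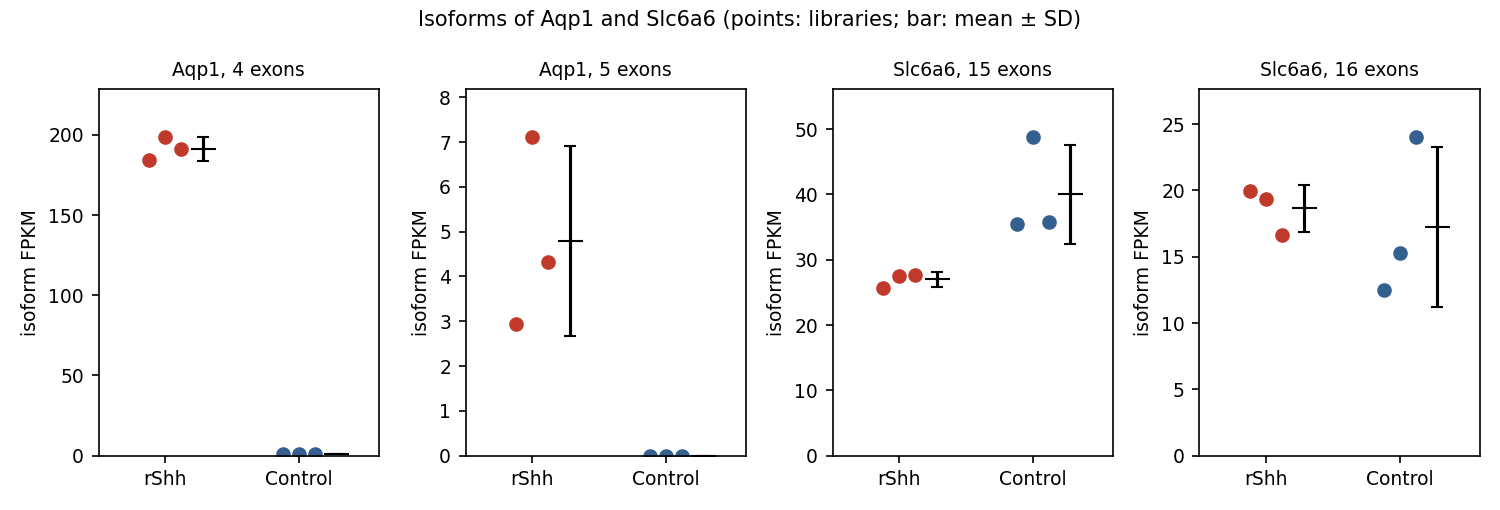
Isoform FPKM (y axis, linear from 0, own scale per panel) of both Aqp1 isoforms and both Slc6a6 isoforms in rShh and Control libraries, with points for the 3 libraries of a group and bars for the mean ± SD. The 15-exon Slc6a6 isoform is at 25.7 to 27.7 FPKM in rShh and 35.5 to 48.8 FPKM in Control, whereas the groups overlap for the 16-exon isoform.

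Slc6a12, the betaine and GABA transporter BGT1, was scarce. It had 103, 45 and 56 counts in the rShh libraries and 4, 10 and 34 counts in the Control libraries. Scaled to depth, Control replicate 3 at 0.670 CPM overlapped with rShh replicate 2 at 0.647 CPM. The means were 1.03 ± 0.500 CPM in rShh and 0.309 ± 0.318 CPM in Control, a ratio of 3.34 that did not pass (log2 change 1.75, SE 0.73, edgeR adjusted p = 0.0603). Without Control replicate 3 the log2 change was 2.99 with an edgeR adjusted p of 0.00547, and over 11 alternatives the adjusted p ran from 0.00547 to 0.244. DESeq2 also called it (adjusted p = 0.0413). Its isoforms of 15 and 14 exons shared the signal, with 52.1% ± 6.58 of the summed FPKM on the 15-exon isoform in rShh and 87.1% ± 22.4 in Control. The Control share rests on 4 and 10 counts in Control replicates 1 and 2, which were each at 100%. Control replicate 3, with 34 counts, was at 61.2%, and the rShh libraries ran from 45.0% to 58.0%. The two-sided exact permutation p of the difference in share was 0.1, the lowest possible with 3 against 3.

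Akr1b1, aldose reductase, which turns glucose into the osmolyte sorbitol, was abundant and nearly level. It is at 61706864 to 61720956 on the minus strand of chromosome 4. The rShh libraries had 223, 236 and 228 CPM and the Control libraries 240.2, 240.1 and 250 CPM. The rShh values lay slightly below the Control values in CPM, and overlapped with them in FPKM. The means were 229 ± 6.67 CPM in rShh and 243 ± 5.73 CPM in Control (log2 change -0.09, SE 0.05, edgeR adjusted p = 0.152). The 95% interval of the log2 change ran from -0.20 to 0.02. With upper-quartile scaling, which moved the median of all genes by -0.07 on the log2 scale, the log2 change was -0.15 and passed (edgeR adjusted p = 0.0203), where 13 alternatives gave adjusted p-values from 0.0203 to 0.376.

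Nfat5, the tonicity-responsive regulator, was higher in rShh. It lies at 38446059 to 38533735 on the minus strand of chromosome 19. Its levels were 111, 127 and 120 CPM in the rShh libraries and 72.1, 61.9 and 44.6 CPM in the Control libraries, so every rShh library was above every Control library. The Control libraries spread more, with a coefficient of variation of 23.4%, against 6.57% in rShh. Means of 119 ± 7.84 CPM in rShh and 59.5 ± 13.9 CPM in Control gave a ratio of 2.00 (log2 change 1.0, SE 0.14, edgeR adjusted p = 0.000157). Among all genes tested 21.9% had a larger fitted log2 change in either direction. The isoform of 15 exons and 13565 nt held 98.8% to 99.4% of the summed isoform FPKM in rShh and 99.2% to 100% in Control. The calcium-regulated relatives of Nfat5 that were tested, Nfatc1, Nfatc3 and Nfatc4, did not pass, and their log2 changes lay between -0.14 and 0.16.

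Because FPKM values are scaled by length, they give the order of the levels within a group. In rShh the order of mean FPKM was Aqp1 at 175, Akr1b1 at 144, Slc6a6 at 40.3, Nfat5 at 7.41, Slc14a1 at 0.537, Slc6a12 at 0.305, and Aqp3, listed at 0. In Control it was Akr1b1 at 152, Slc6a6 at 50.9, Nfat5 at 3.68, Aqp1 at 0.736, Slc6a12 at 0.089, Aqp3 at 0.028, and Slc14a1, listed at 0. Aqp1 thus stood at rank 1 of 7 in rShh and rank 4 in Control, while Akr1b1, Slc6a6 and Nfat5 kept one order among themselves in both groups. Neighbours in the order had separate library values, other than Slc14a1 and Slc6a12 in rShh, and Slc6a12, Aqp3 and Slc14a1 in Control, whose neighbouring ranges overlapped. The FPKM of a gene was at most 1.26 times smaller than the sum of its isoforms' FPKM, so the 2 kinds of FPKM are not interchangeable.

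**Figure D3:**
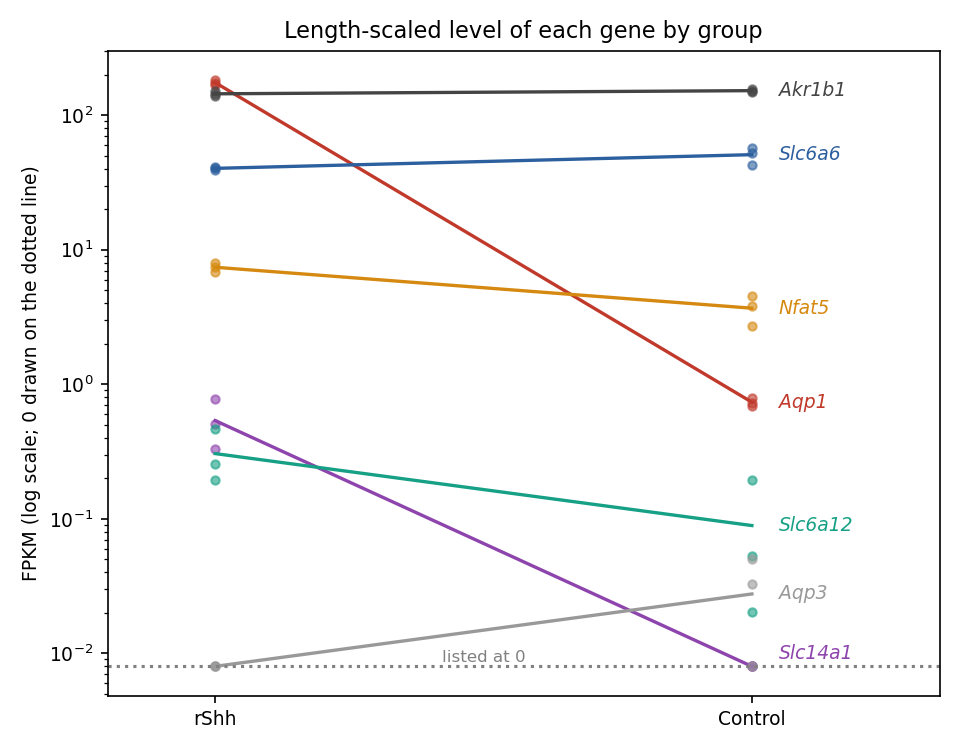
FPKM of the 7 genes (y axis, log scale, with values of 0 drawn on the dotted line) in rShh and Control. Points are libraries and lines join the group means. The Aqp1 line runs between 175 FPKM in rShh and 0.736 FPKM in Control and crosses those of Akr1b1, Slc6a6 and Nfat5.

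Other genes of osmotic adaptation, taken from lists of known function, moved in both directions. The calls in these lists are to be read beside the 60.3% called among all genes tested. Of 10 tested genes linked to the tonicity response, 5 were higher in rShh, 1 was lower (Lcn2) and 4 did not pass. Their median log2 change was 0.24. Acan, the aggrecan core protein, was at 586 ± 14.5 CPM in rShh and 56.5 ± 7.97 CPM in Control. Ccl2, a monocyte chemokine, was at 397 ± 24.3 CPM in rShh and 73.7 ± 7.64 CPM in Control, and Sgk1, a kinase that acts on ion channels, at 35.3 ± 2.14 CPM in rShh and 6.86 ± 0.876 CPM in Control. Hspa4l, Hspa1b, S100a4 and B3gat3 did not pass.

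Of 16 tested genes of cell volume control and ion cotransport, 8 were higher in rShh, 5 lower and 3 did not pass. Their median log2 change was 0.18. The kinase Wnk1, which senses chloride and crowding, was at 302 ± 6.79 CPM in rShh and 160 ± 15.0 CPM in Control. Its downstream kinase Oxsr1 was at 287 ± 4.79 CPM in rShh and 121 ± 2.60 CPM in Control. Lrrc8c, a subunit of the volume-regulated anion channel, was at 35.9 ± 2.51 CPM in rShh and 15.3 ± 1.0 CPM in Control. These 3 had edgeR adjusted p-values of 1.98e-06, 2.17e-08 and 1.67e-06. The 5 lower genes were Trpv4, Slc12a7, Slc12a4, Clns1a and Lrrc8e, the last a subunit of the same channel as Lrrc8c. Trpv4 had a log2 change of -1.52 (edgeR adjusted p = 2.78e-05).

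Of 6 tested further transporters of organic osmolytes and their precursors, 3 were higher, 2 lower and 1 did not pass (median log2 change -0.06). The choline transporter-like genes split, with Slc44a1 at 60.8 ± 3.48 CPM in rShh and 34.4 ± 1.6 CPM in Control, and Slc44a2 at 75.4 ± 1.5 CPM in rShh and 171 ± 11.8 CPM in Control. Slc38a2, an amino acid transporter induced by hypertonicity, was at 901 ± 11.2 CPM in rShh and 648 ± 24.2 CPM in Control (log2 change 0.47, edgeR adjusted p = 1.2e-05). Of 10 tested enzymes of osmolyte synthesis and breakdown, 2 were higher, 2 lower and 6 did not pass (median log2 change -0.03). Isyna1, which makes the myo-inositol precursor, was at 8.73 ± 1.06 CPM in rShh and 24.5 ± 3.42 CPM in Control, and Cdo1, which starts taurine synthesis from cysteine, at 2.32 ± 0.757 CPM in rShh and 0.787 ± 0.103 CPM in Control. Pnpla6, a phospholipase that yields glycerophosphocholine, was at 20.1 ± 0.726 CPM in rShh and 30.2 ± 2.10 CPM in Control.

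**Figure D4:**
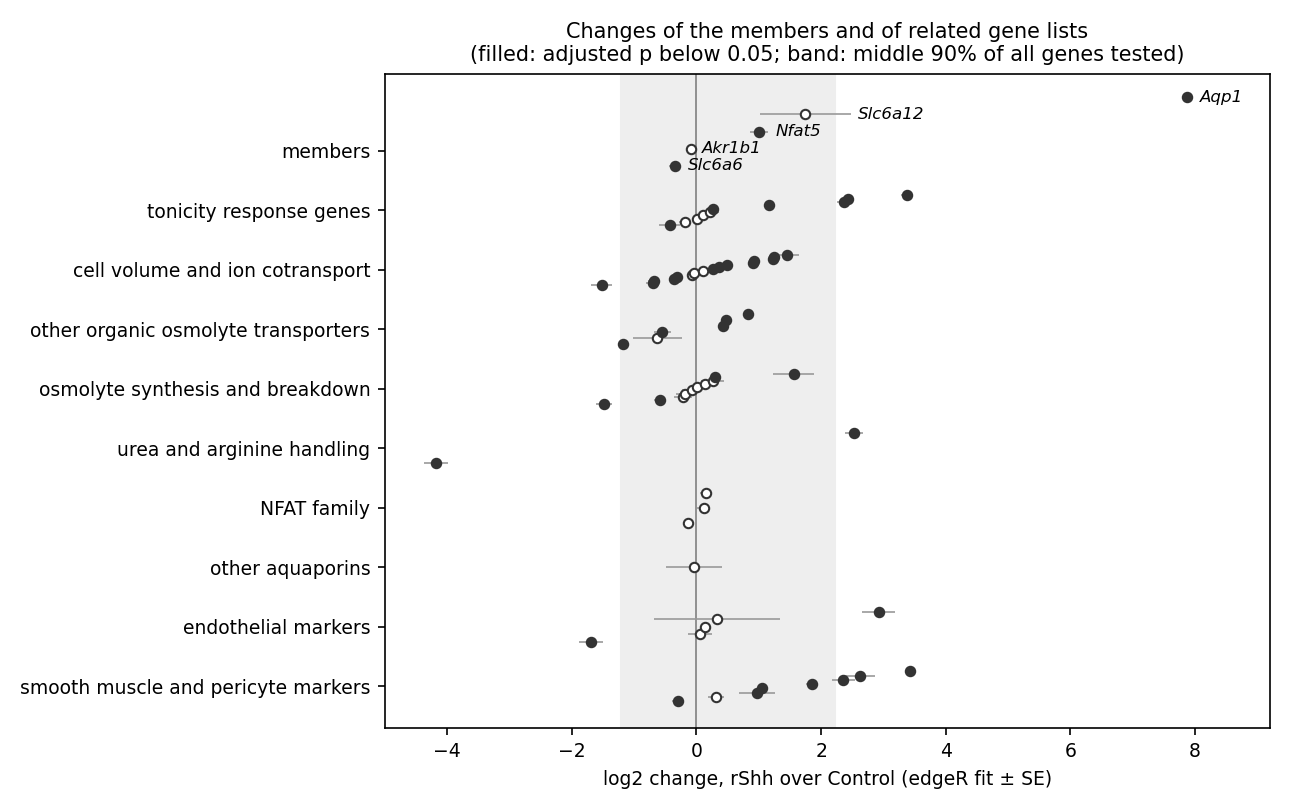
Fitted log2 change, rShh over Control (x axis, ± SE), of the tested members, of related gene lists and of endothelial and mural markers, 1 point per gene. Filled points have an adjusted p below 0.05 and the band holds the middle 90% of all genes tested. Slc14a1 and Rgs5, at 0 in Control, are left out. Aqp1 lies at 7.88, and the lists spread to both sides of 0.

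Aqp1 and Slc14a1 are also genes of endothelial and red blood cells, so the markers of those and other cell types are set beside them. For calls among the markers too, the share over all genes tested was 60.3%. Of 12 endothelial markers 8 had rows and 5 were tested. Flt1 was higher in rShh, at 11.5 ± 0.617 CPM, against 1.51 ± 0.703 CPM in Control, Tek was lower, at 1.76 ± 0.079 CPM, against 5.71 ± 0.906 CPM in Control, and 3 did not pass. The 8 summed to 49.3 to 52.7 CPM in rShh and 38.4 to 45.8 CPM in Control. Most of that sum was Egfl7, at 29.0 ± 1.73 CPM in rShh and 26.4 ± 2.08 CPM in Control, and Esam, at 8.53 ± 0.659 CPM in rShh and 8.22 ± 2.30 CPM in Control, neither of which passed. Vwf had 7 to 26 counts in rShh and 0 to 29 in Control, Plvap 0 in rShh and 7 to 10 in Control, and Tie1 and Cldn5 had at most 4 counts in any library. Of 12 erythroid names 5 had rows, which summed to 0.330 to 0.733 CPM in rShh and 0.354 to 0.466 CPM in Control, with at most 25 counts for any gene in a library. They went both ways. Alas2, the erythroid haem synthesis enzyme, had 11 to 18 counts in rShh and 0 in Control, and Slc4a1, the red cell anion exchanger, 0 to 23 counts in rShh and 0 to 4 in Control. Klf1, an erythroid transcription factor and the one gene of the list that was tested, had 0 to 9 counts in rShh and 13 to 25 in Control and did not pass (log2 change -2.11, edgeR adjusted p = 0.0664). Of 9 tested smooth muscle and pericyte markers, 7 were higher in rShh, 1 was lower (Tagln, log2 change -0.30, edgeR adjusted p = 0.0177) and 1 did not pass (Acta2, edgeR adjusted p = 0.0507). Their median log2 change was 1.85. Their sum, in which Acta2 and Tagln take most, ran from 11549 to 12432 CPM in rShh and from 9084 to 12891 CPM in Control. Myh11, the smooth muscle myosin, was at 263 ± 12 CPM in rShh and 24.4 ± 3.25 CPM in Control, and Rgs5, a pericyte gene, had 84 to 89 counts in rShh and 0 in Control. Their part in the Aqp1 difference was not tested. Leukocyte markers summed to 13.1 to 15.5 CPM in rShh and 10.99 to 14.1 CPM in Control, nearly all of it Cd14. Epithelial markers summed to at most 0.214 CPM in rShh and 0.442 CPM in Control, and adipocyte markers to at most 1.13 CPM in rShh and 2.55 CPM in Control.

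By position, 4 of the 7 members with a row lie on chromosome 4 (Akr1b1, Aqp1, Slc6a6 and Slc6a12), which holds 5.53% of all rows, at sites far apart. None of the 7 overlapped another row of the table. The nearest tested genes on each side, chosen by position after the data were seen, were 14 in all. Of these, 6 were higher in rShh, 2 lower and 6 did not pass, where 60.3% of all genes tested were called. Next to Aqp1, Mindy4 lay 19.3 kb before it, at 7.55 ± 1.18 CPM in rShh and 6.25 ± 2.01 CPM in Control, and did not pass (edgeR adjusted p = 0.317). Adcyap1r1, 93.5 kb after it, was at 0.343 ± 0.098 CPM in rShh and 0.043 ± 0.075 CPM in Control (edgeR adjusted p = 0.0352). Beside Akr1b1, its relative Akr1b8 lay 51.0 kb away, at 381 ± 23.2 CPM in rShh and 69.8 ± 3.50 CPM in Control (log2 change 2.45, edgeR adjusted p = 2.41e-09), a difference that Akr1b1 did not show. Since both belong to one gene family, how far they share reads was not tested and their counts are uncertain to that extent. Next to Nfat5, Nqo1, a quinone reductase 8.88 kb away, was at 961 ± 27.5 CPM in rShh and 926 ± 81.2 CPM in Control and did not pass (edgeR adjusted p = 0.492).

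The genes whose pattern over the 6 libraries lay nearest to 5 of the members were found by the mean absolute distance between centred log2(CPM + 0.5) values, as a description. For Aqp1 they were Ddx3 (0.04) and Eif2s3y (0.36), which are chromosome Y genes listed at 0 in Control. For Nfat5 they were Trappc2 (0.02) and Xiap (0.03), and for Slc6a6 Nlgn2 (0.03) and Disp2 (0.04). Akr1b1 lay nearest to Arl6ip5 (0.02) and Rgs12 (0.02), and Slc14a1 to Ebf2 (0.13) and Rrm2 (0.15). For genes at or near 0 in a group, the distance depends on the added 0.5 CPM.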

How the data were processed

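Per the labels' protocols, poly(A) RNA was sequenced as paired-end reads from libraries with dUTP-marked second strands. The submitters' processing notes name StringTie 1.3.4d, HISAT2 2.0.4, cutadapt 1.9, edgeR and DESeq2. The sources used here give neither their roles nor a strand setting or genome build. The authors deposited whole-number counts, not normalized, and FPKM values (per the file headers) for 19088 gene rows and 24343 isoform rows. Genes were kept by filterByExpr (minimum count 10), scaled by TMM and tested with edgeR 4.0.16 (glmQLFit, glmQLFTest, two-sided) in R 4.3.3. Isoforms with a mean of at least 1 FPKM went into limma 3.58.1, with its trend option, on log2(FPKM + 1), a scale that understates changes of low isoforms. Adjusted p-values (Benjamini-Hochberg) cover each whole table, with a threshold of 0.05. CPM values use TMM-scaled library sizes. The floor for a count of 0 is 3 counts per library and covers counting error alone.

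The members and lists were chosen with earlier results of these data known. Text names all members and their isoforms, up to 3 genes of smallest p per further list, the 2 genes nearest in pattern (those of Slc6a12 are not reported here), and marker lists by counts. Any further gene named was picked with its values in view. The fits were checked on simulated counts. Within groups the chi-square per degree of freedom between libraries was 10.5 to 50.5, well beyond counting noise, and no library repeated another. The biological coefficient of variation was 12.7%. Alternatives were other scalings, DESeq2 1.42.0, limma on FPKM, no count filter, a replicate block and leaving out each library.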

Additional observations from a re-analysis of the deposited data

How the results depend on the processing

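Over 13 alternative settings, the members' gene log2 changes kept their direction in all 74 values that could be computed, and their side of the threshold in 70. Aqp1 and Slc14a1 could differ in size, with Aqp1 at 6.66 by limma on log2(FPKM + 1), but both stayed called wherever fitted, as did Nfat5. Slc14a1 and Slc6a12 fell under the FPKM minimum, so limma gave no value for them. The exceptions were Slc6a6, Slc6a12 and Akr1b1. Slc6a6 ran from -0.47 to -0.26 on leaving out 1 library, and Slc6a12 from 1.27 to 2.99. DESeq2 gave Slc6a12 a log2 change of 1.74, which passed, and upper-quartile scaling gave Akr1b1 -0.15, which passed. The number of members called lower was therefore 2 with upper-quartile scaling and 0 to 1 without 1 library. The 16-exon Slc6a6 isoform ran from -0.045, without Control replicate 1, to 0.40. The number of members called higher was 2 to 4 over the alternatives. It was 2 by limma on FPKM, which gave no value for Slc14a1. It was 4 by DESeq2 and without Control replicate 3, where Slc6a12 passed. Among all genes, calls ran from 3973 to 4878 higher and from 3676 to 4798 lower over the alternatives. Causes of the shifts in log2 change and in the calls among all genes were not tested.

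Samples with the same number did not deviate together (correlations of -0.08, -0.01 and -0.01), so the numbers were not taken as pairs. With a replicate block the log2 changes were 7.88 for Aqp1, 1.03 for Nfat5, -0.34 for Slc6a6 and 2.01 for Slc6a12, no member's call changed, and 4470 genes were higher and 3970 lower. Depth limits Aqp3, Slc6a12 and Slc14a1 most, with at most 212 counts in a library.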
